A study of Mus musculus with 18 samples.

Results

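The genes described here encode the protein-folding machinery of the endoplasmic reticulum and the transcription factor Xbp1. They were followed through blood-forming cells of mice that received either tamoxifen, which binds estrogen receptors and blocks or activates them depending on the tissue, or its corn oil vehicle. They were chosen by symbol as Hspa5, Hsp90b1, Hyou1, Dnajb11, Calr, Canx, Pdia3, Pdia4, Pdia6 and Xbp1, and all 10 were among the 14419 genes of the deposited table. RNA was sequenced from freshly isolated bone marrow cells of C57BL/6 mice, all adult males. The design text calls the cells long-term haematopoietic stem cells (LT), short-term haematopoietic stem cells (ST) and multipotent progenitors (MPP). The 6 groups, of 3 libraries each, were ST cells after 2 weeks of tamoxifen and of oil, LT cells after 2 weeks of tamoxifen and of oil, and MPPs after 1 week of tamoxifen and of oil. No allele or transgene is named for any group. Population and length of treatment cannot be told apart when MPPs are compared with the other cells. The number that opens each library title runs on from MPP to LT libraries and starts again for ST libraries. The labels do not say what it marks. Population cannot be told apart from that numbering when ST cells are compared with LT cells or MPPs. The design text calls the 3 libraries biological replicates, but the sources used here give neither the gates and the dose nor whether 1 library was 1 mouse. P-values therefore set each difference against the spread between these libraries, shared over the 6 groups, and not against a known spread between mice.

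Secreted and membrane proteins fold in the endoplasmic reticulum, where BiP (Hspa5), an HSP70 chaperone, binds unfolded chains, calnexin and calreticulin hold sugar-bearing chains, and protein disulfide isomerases form and reshuffle disulfide bonds. When unfolded proteins build up, the sensors Ire1, Perk and Atf6 start the unfolded protein response. Ire1 splices the mRNA of Xbp1, and the spliced Xbp1 protein and the cleaved Atf6 protein switch on chaperone genes through endoplasmic reticulum stress elements (ERSE) in their promoters. Blood stem cells are known for low rates of protein synthesis and for close control of this response. A gene's read count does not tell spliced from unspliced Xbp1 mRNA.

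The ERSE, spelled here as CCAAT and CCACG parted by 9 bases and searched on both strands, was present in the windows of 5 of the 9 members with a RefSeq promoter (GRCm38.p6, 250 bases before to 50 after the start). Over all 32851 windows of this kind, 39 held it, or 0.119%. The element is known from promoters of chaperone genes, as said above. Its higher share among the members was thus given in advance and is description only. Positions below count from the RefSeq start. The element lay at -65 to -47 in Hspa5, at -145 to -127 in Canx and at -98 to -80 in Pdia6. It lay on the opposite strand at -162 to -144 in Calr. Hsp90b1 had 2 copies, at -212 to -194 and, on the opposite strand, at -107 to -89. The stretches that hold the elements are printed because these promoters share them across 5 genes whose RNA is compared below. Capitals mark the letters of each element, which read CGTGG and ATTGG where it lies on the opposite strand.
Hspa5, chr2:34771985-34772083 (plus strand): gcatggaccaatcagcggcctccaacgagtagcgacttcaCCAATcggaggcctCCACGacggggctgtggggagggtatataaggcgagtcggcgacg
Hsp90b1, chr10:86705493-86705694 (minus strand): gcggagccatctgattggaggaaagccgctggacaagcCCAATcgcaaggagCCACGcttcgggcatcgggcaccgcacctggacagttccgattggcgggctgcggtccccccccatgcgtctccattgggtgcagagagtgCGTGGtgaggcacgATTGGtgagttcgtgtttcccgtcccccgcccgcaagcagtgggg
Calr, chr8:84847035-84847133 (minus strand): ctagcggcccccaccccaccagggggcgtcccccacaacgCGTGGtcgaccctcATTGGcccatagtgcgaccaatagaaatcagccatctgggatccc
Canx, chr11:50325760-50325858 (minus strand): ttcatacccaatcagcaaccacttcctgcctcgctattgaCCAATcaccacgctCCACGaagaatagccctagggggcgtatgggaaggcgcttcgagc
Pdia6, chr12:17266451-17266549 (plus strand): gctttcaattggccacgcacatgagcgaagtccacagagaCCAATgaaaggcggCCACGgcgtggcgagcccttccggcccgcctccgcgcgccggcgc

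A second element, ATTGG and CCACG parted by 1 base (ERSE-II), was in 12 of the windows (0.0365%), among them that of Dnajb11 at 8 to 18 bases after its start. Another spelling, TGACG directly followed by TGG, was in 222 windows (0.676%), none of them a member's. The windows of Pdia3, Pdia4 and Xbp1 held none of the 3 exact spellings. Hyou1 had no entry. A match is a run of letters and was not tested as a binding site.

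Values are called normalised CPM: each is a gene's reads times a constant of its library, which holds more than a scaling to 1 total, since the values summed to 900541 to 1149321 per library. The reads in listed genes numbered 2728800 to 5279821 per library. Differences are log2 fold changes, on log2(value + 1), with their standard error (SE). A gene was called when limma's p-value, adjusted over all 14419 genes by the Benjamini-Hochberg method, was under 0.05. In bulk RNA, more cells of a type and more RNA per cell cannot be told apart. The summed long-term stem cell genes were highest in LT libraries (2018 to 2563 CPM) and the summed multipotent progenitor genes in MPP libraries (2025 to 2744 CPM), as the labels have it. No list marked ST cells. In ST oil the first sum was 1111 to 1361 CPM, below the 1395.5 to 1589 CPM of MPP oil. The second was 1109.7 to 1451 CPM in ST oil and 409 to 671 CPM in LT oil. Granulocyte precursor markers summed to 1441 to 1765 CPM in ST oil and 726 to 1192 CPM in MPP oil. Erythroblast markers summed highest in LT libraries, at 1998 to 2792 CPM. LT tamoxifen library A stood apart, with 25.5% of its reads on the mitochondrial ribosomal RNAs, against 17.7% to 18.7% in the other LT libraries. ST tamoxifen library A was also high, at 24.4%, against 21.5% and 19.3% in ST tamoxifen libraries B and C. It had the lowest value of its group in 5 members. ST oil library A was the shallowest and had the lowest value of its group in all 10 members.

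In ST cells the chaperone genes were higher after 2 weeks of tamoxifen. Of the 10 members 8 rose and none fell, where 6.01% of all genes rose and 3.6% fell. The 9 chaperones together came to 3940 ± 139 CPM with tamoxifen and 2366 ± 437 CPM in oil (SD, n = 3 each). The groups did not overlap in 9 of the 10 members, against 14.8% of all genes. The median log2 fold change was 0.66 over the members and 0.01 over all genes. The values over all genes summed to 1021031 to 1060064 in ST tamoxifen libraries and 900541 to 992452 in ST oil libraries. The members' count was 5 without ST tamoxifen library C, 6 without ST oil library A and 10 without LT tamoxifen library A in the shared fit, where 3.01%, 3.09% and 9.28% of all genes rose. Without ST oil library B or ST tamoxifen library B 3.95% and 3.72% of all genes rose, with 8 and 7 members. Over all genes 867 rose and 519 fell, 606 and 554 with quantile normalisation, and 483 and 713 when reads of the mitochondrial ribosomal RNAs were left out of the scaling, under which 6 and 7 members rose.

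**Figure D1:**
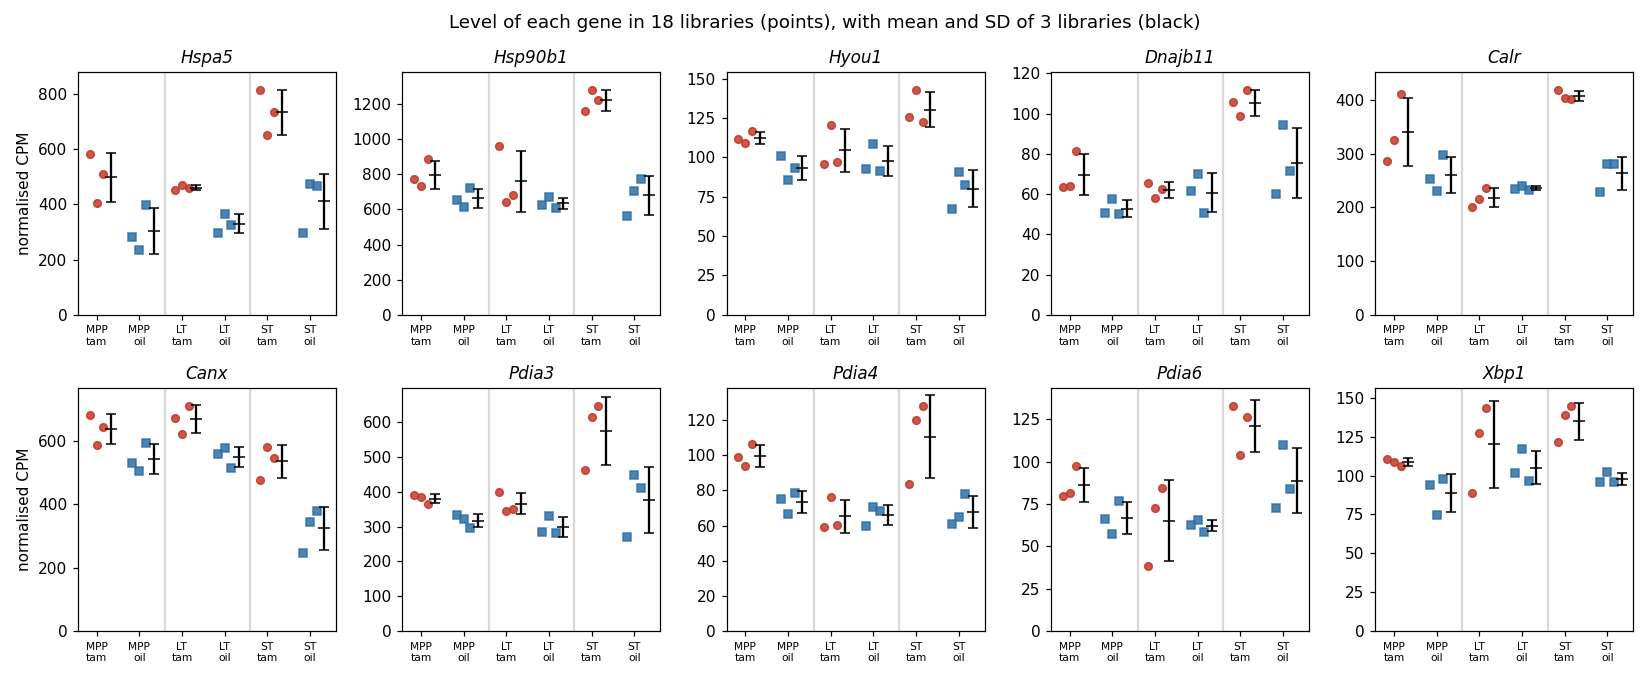
Level of each of the 10 genes in normalised CPM (y axis, from 0) in each library by group (x axis, tam for tamoxifen). Red circles are tamoxifen libraries, blue squares oil libraries, and the black bar gives the mean and SD of 3 libraries. ST tamoxifen is the highest group for 9 genes, while Canx is highest in LT tamoxifen at 668 CPM.

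BiP and its partners rose in ST cells. Hspa5 (BiP, ENSMUSG00000026864, GRCm38 chr2:34771970-34777547, plus strand) stood at 814, 649.8 and 734 CPM in the ST tamoxifen libraries, against 295, 472 and 465 CPM in the ST oil libraries. The lowest tamoxifen library lay well above the highest oil library, and oil library A lay far below the other oil libraries. The log2 fold change was 0.86 (SE 0.18, limma adjusted p = 0.00455), and 0.64 (adjusted p = 0.032) without oil library A. Hsp90b1 (GRP94, the HSP90 of the endoplasmic reticulum, ENSMUSG00000020048, chr10:86690209-86705509, minus strand) stood at 1161, 1281 and 1226 CPM with tamoxifen, against 560.4, 704 and 776 CPM in oil. The groups were wide apart and the 3 tamoxifen values close together. Its log2 fold change was 0.86 (SE 0.14, limma adjusted p = 0.000412), the smallest p among the members, and the call held in each of the 11 alternatives and the 7 fits with 1 library left out. The exons of Hsp90b1 overlap a pseudogene on the opposite strand, and Gm15344 on the same strand, which had at most 4.77 CPM and at most 0.852% of the level of Hsp90b1 in any library.

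Hyou1 (GRP170, a large HSP70 relative that exchanges the nucleotide of BiP, ENSMUSG00000032115, chr9:44379490-44392369, plus strand) stood at 126, 143 and 122 CPM in ST tamoxifen, against 67.3, 90.6 and 82.2 CPM in ST oil. Again no library of one group reached the other. It rose by 0.70 on the log2 scale (SE 0.14, limma adjusted p = 0.00196). Dnajb11 (ERdj3, a J-domain co-chaperone of BiP, ENSMUSG00000004460, chr16:22857845-22879634, plus strand) stood at 106, 99.0 and 112 CPM with tamoxifen, against 60.1, 94.3 and 71.7 CPM in oil. Its groups came close, since oil library B nearly reached tamoxifen library B. It rose by 0.50 (SE 0.16, limma adjusted p = 0.0436), the weakest call of the set. The adjusted p of Dnajb11 was 0.233 without ST oil library A, 0.0908 without oil library C, 0.0811, 0.0712 and 0.146 without tamoxifen libraries A, B and C, and 0.0718 with edgeR, and the call held in 3 of the 11 alternatives.

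The lectin chaperones, which hold newly made glycoproteins until they fold, both rose in ST cells. Calr (calreticulin, the soluble one, ENSMUSG00000003814, chr8:84841850-84846934, minus strand) stood at 419, 404 and 401 CPM in ST tamoxifen, against 229, 281 and 280.4 CPM in ST oil. The tamoxifen libraries were tightly grouped and lay above every oil library. The log2 fold change was 0.64 (SE 0.13, limma adjusted p = 0.00304), and 0.41 (adjusted p = 0.057, not called) with quantile normalisation. A processed pseudogene, Calr-ps, lies elsewhere in the genome, so some reads of Calr could have been assigned to either. Canx (calnexin, the membrane-bound one, ENSMUSG00000020368, chr11:50293961-50325673, minus strand) stood at 477, 581 and 546 CPM with tamoxifen, against 247, 345 and 379 CPM in oil. Every tamoxifen library was above every oil library. It rose by 0.74 (SE 0.13, limma adjusted p = 0.000989), a call that held in all 11 alternatives and all 7 fits with 1 library left out.

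Of the disulfide isomerases, Pdia3 and Pdia4 rose in ST cells and Pdia6 did not pass. Pdia3 (ERp57, which works with calnexin and calreticulin, ENSMUSG00000027248, chr2:121413775-121438687, plus strand) stood at 463, 616 and 646 CPM in ST tamoxifen, against 269, 448 and 412 CPM in ST oil. Tamoxifen library A was close to the upper oil libraries, without overlap. The log2 fold change was 0.63 (SE 0.15, limma adjusted p = 0.00809), with the call lost without ST oil library A (adjusted p = 0.0884) or ST tamoxifen library C (0.0612). Catsper2, on the opposite strand, overlaps exons of Pdia3, and the sources used here do not say whether the counting used strand. Catsper2 had at most 8.90 CPM.

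Pdia4 (ERp72, ENSMUSG00000025823, chr6:47796141-47813430, minus strand) stood at 83.8, 120.1 and 128 CPM in ST tamoxifen, against 60.7, 64.8 and 78.1 CPM in ST oil. Tamoxifen library A was low in its group and just above the highest oil library. It rose by 0.68 (SE 0.16, limma adjusted p = 0.00654), with an adjusted p of 0.0542 without tamoxifen library C. Pdia6 (P5, an isomerase that associates with BiP, ENSMUSG00000020571, chr12:17266545-17284770, plus strand) stood at 133, 104 and 126 CPM with tamoxifen, against 72.6, 109.8 and 84.0 CPM in oil. It was the only member whose ST groups overlapped, at tamoxifen library B and oil library B. Its log2 fold change was 0.45 (SE 0.21, limma adjusted p = 0.177), with 0.033 without LT tamoxifen library A in the shared fit. Atp6v1c2, on the opposite strand, overlaps exons of Pdia6.

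Xbp1 (ENSMUSG00000020484, chr11:5520659-5525893, plus strand) lay at the threshold in ST cells. It stood at 122, 139 and 145 CPM in ST tamoxifen, against 95.6, 103 and 96.0 CPM in ST oil. The groups did not overlap, and relative to their mean the 3 oil libraries were closer together than for any of the chaperones. The log2 fold change was 0.45 (SE 0.15, limma adjusted p = 0.0507, 95% interval 0.15 to 0.76). Xbp1 was called in 5 of the 11 alternatives and, with 1 library left out, without ST tamoxifen library A (adjusted p = 0.0442) and without LT tamoxifen library A in the shared fit (0.00965).

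**Figure D2:**
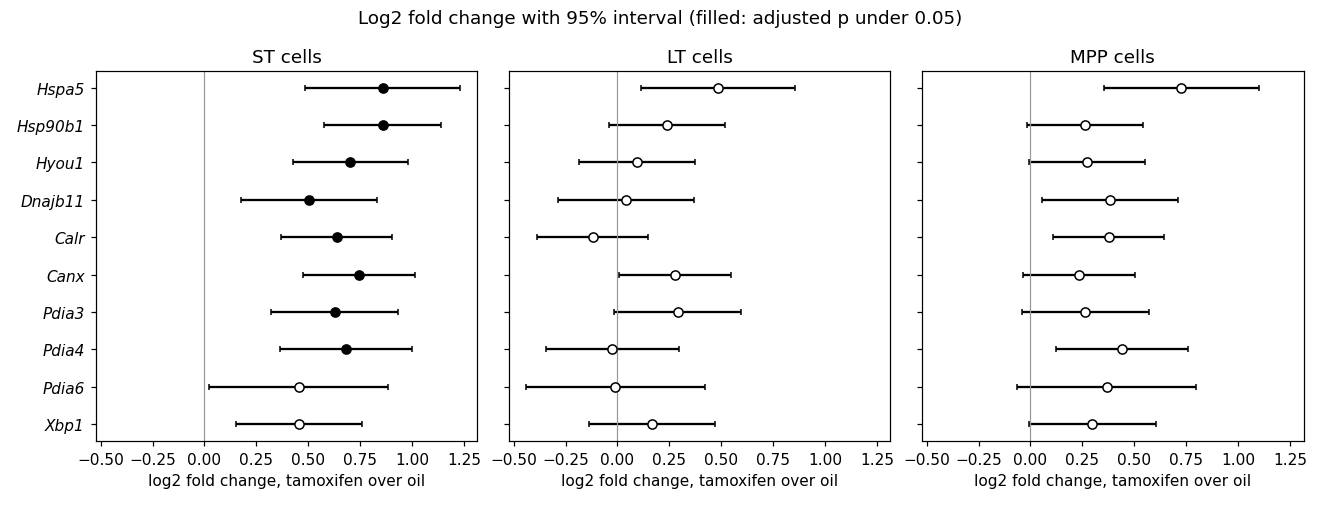
Log2 fold change of each gene, tamoxifen over oil (x axis), in ST, LT and MPP cells, with its 95% interval from limma. Filled points passed an adjusted p of 0.05. All 8 filled points are in ST cells, and the MPP points are all above 0 without passing.

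In LT cells after the same 2 weeks no member was called, where 0.139% of all genes rose and 0.277% fell (20 and 40 genes). Over all genes the higher and lower calls in LT cells depended on the setting, with 19 and 75 when mitochondrial ribosomal RNAs were left out of the scaling, 26 and 32 with edgeR, 178 and 122 with DESeq2, 113 and 122 with library weights and 149 and 181 without LT tamoxifen library B. An unadjusted p under 0.05 was reached by 2 members, and with edgeR and DESeq2 none passed after adjustment. Hspa5 stood at 451, 469 and 460.2 CPM in LT tamoxifen, against 298, 365 and 326 CPM in LT oil. These groups did not overlap, and the log2 fold change was 0.48 (SE 0.18, limma adjusted p = 0.215). Canx stood at 673, 621 and 709 CPM in LT tamoxifen, against 559, 575 and 515 CPM in LT oil, also apart, at 0.28 (SE 0.13, limma adjusted p = 0.350). Pdia3 averaged 366 ± 30.4 CPM with tamoxifen and 299 ± 27.8 CPM in oil, the third member whose groups did not overlap, against 9.04% of all genes.

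In several other members LT tamoxifen library A stood apart. Hsp90b1 stood at 960.5, 640.4 and 681 CPM in LT tamoxifen, against 627, 670.4 and 609 CPM in LT oil, so that library A alone was high. Pdia6 was low in the same library, with 38.2, 72.6 and 84.6 CPM in LT tamoxifen, against 62.8, 65.3 and 58.6 CPM in LT oil. Xbp1 was low there too, with 89.1, 127 and 144 CPM in LT tamoxifen, against 101, 117 and 96.8 CPM in LT oil. Calr was the member with the lowest fold change, at 201, 216 and 237 CPM with tamoxifen, against 235, 241 and 233 CPM in oil (log2 fold change -0.12, SE 0.13, limma adjusted p = 0.754). The fold changes of Hyou1, Dnajb11 and Pdia4 were 0.10, 0.04 and -0.02. The sum of the 9 chaperones was 2769 ± 165 CPM in LT tamoxifen and 2336 ± 141 CPM in LT oil.

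In MPPs after 1 week no member was called, where 0.0347% of all genes rose. All 10 fold changes were above 0, with a median of 0.33, against 7208 of 14419 genes above 0 and a median of -0.00014 over all genes. An unadjusted p under 0.05 was reached by 4 members and by 819 of the 14419 genes, while edgeR and DESeq2 called no member. The groups of 8 members did not overlap, against 7.66% of all genes. Hspa5 had the highest fold change, at 581, 404 and 509.5 CPM in MPP tamoxifen, against 281, 236 and 397 CPM in MPP oil. Only a narrow gap parted tamoxifen library 2 from oil library 3. The log2 fold change was 0.73 (SE 0.18, limma adjusted p = 0.242), and without MPP oil library 3 it was 0.93 with an adjusted p of 0.0119, so the call turned on that library. Over all genes 28 rose and 12 fell in that fit, against 5 and 3 with all libraries.

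Pdia4 stood at 99.0, 94.0 and 107 CPM in MPP tamoxifen, against 75.0, 66.6 and 78.5 CPM in MPP oil (log2 fold change 0.44, SE 0.16, limma adjusted p = 0.686). Calr stood at 286, 325 and 411 CPM with tamoxifen, against 254, 231 and 298 CPM in oil, with overlap (0.38, SE 0.13, limma adjusted p = 0.653). Dnajb11 stood at 63.5, 63.9 and 81.4 CPM in MPP tamoxifen, against 50.4, 57.7 and 50.3 CPM in MPP oil (0.38, SE 0.16, limma adjusted p = 0.842). Xbp1 averaged 109 ± 2.37 CPM with tamoxifen and 88.8 ± 12.5 CPM in oil, without overlap and without passing. The 5 other members had log2 fold changes from 0.24 for Canx to 0.37 for Pdia6. The sum of the 9 chaperones was 3022 ± 221 CPM in MPP tamoxifen and 2373 ± 217 CPM in MPP oil.

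The fold changes in ST cells were larger than those in LT cells for each of the 10 members, but no single difference was called, where 0.0555% of all genes were (8 genes). The test set the tamoxifen effect in ST cells minus that in LT cells. The difference was 0.75 for Calr (SE 0.18, limma adjusted p = 0.0864), 0.71 for Pdia4 (SE 0.22, 0.165), 0.62 for Hsp90b1 (SE 0.19, 0.165) and 0.61 for Hyou1 (SE 0.19, 0.169). Canx and Dnajb11 had 0.46 each (adjusted p = 0.281 and 0.387), and these 6 members had an unadjusted p under 0.05. Without LT tamoxifen library A, Calr (adjusted p = 0.0458) and Hsp90b1 (0.0151) passed. DESeq2 called Calr (0.0298) and edgeR called none. Over all genes 74 higher and 48 lower differences were called without LT tamoxifen library A, and 68 and 57 with DESeq2, against 6 and 2 by the fit of all libraries.

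Against MPPs, whose treatment was shorter, the ST effect differed from the MPP effect in no member at the threshold, where 0.00694% of all genes were called (1 gene). The difference was 0.59 for Hsp90b1 (SE 0.19, limma adjusted p = 0.227), 0.51 for Canx (SE 0.19, 0.287) and 0.43 for Hyou1 (SE 0.19, 0.368), the 3 members at an unadjusted p under 0.05. Hsp90b1 passed without LT tamoxifen library A in the shared fit (0.038), where 112 higher and 52 lower differences were called over all genes. With DESeq2 103 and 25 were. DESeq2 and edgeR called none, and both differences use the same ST libraries. The LT effect minus the MPP effect was called in 0 members and in 0% of all genes by limma. Calr (-0.50, limma adjusted p = 0.832) and Pdia4 (-0.46, 0.867) had an unadjusted p under 0.05, and edgeR and DESeq2 called no member. With quantile normalisation 2 genes were called higher and 5 lower in ST minus LT cells, against 6 and 2 as deposited, and 3 and 6 in ST minus MPP cells, against 1 and 0.

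Among oil-treated cells Canx was the only member called between ST and LT cells. Canx stood at 247, 345 and 379 CPM in ST oil, against 559, 575 and 515 CPM in LT oil. The highest ST library was far below the lowest LT library. The log2 fold change was -0.79 (SE 0.13, limma adjusted p = 5.55e-05), a call that held in all 11 alternatives and with each library left out. One of 10 members was thus called, where 28.5% of all genes were called and 16% were lower. Hyou1 and Pdia6 had an unadjusted p under 0.05, with log2 fold changes of -0.29 (SE 0.14, limma adjusted p = 0.115) and 0.49 (SE 0.21, 0.0853). Pdia6 passed in 4 of the 11 alternatives, with library weights (0.0139), the compared groups alone (0.0182), quantile normalisation (0.0347) and DESeq2 (0.0496), and without LT tamoxifen library A (0.00985).

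Canx also parted the progenitors from ST cells. It stood at 529, 503 and 593 CPM in MPP oil, against 247, 345 and 379 CPM in ST oil (log2 fold change 0.76, SE 0.13, limma adjusted p = 7.39e-05). Dnajb11 went the other way, at 50.4, 57.7 and 50.3 CPM in MPP oil, against 60.1, 94.3 and 71.7 CPM in ST oil, without overlap. Its log2 fold change was -0.48 (SE 0.16, limma adjusted p = 0.0221), with the call lost without MPP oil library 1 (adjusted p = 0.0727), MPP oil library 3 (0.0702) or ST oil library B (0.178). Hspa5 had -0.43 (SE 0.18, 0.0722), called without MPP oil library 3 (0.00855) or ST oil library A (0.00613). These 2 of 10 called members stand against 30.7% of all genes. Those were 2423 higher and 2007 lower genes, or 1798 and 2588 with the mitochondrial ribosomal RNAs left out of the scaling, which took the median of all genes to -0.16, against -0.05 as deposited. Between MPP oil and LT oil no member was called or reached an unadjusted p under 0.05, where 14.8% of all genes were called (1119 higher and 1011 lower, or 853 and 1276 in that scaling). With edgeR and DESeq2 no member passed either.

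**Figure D3:**
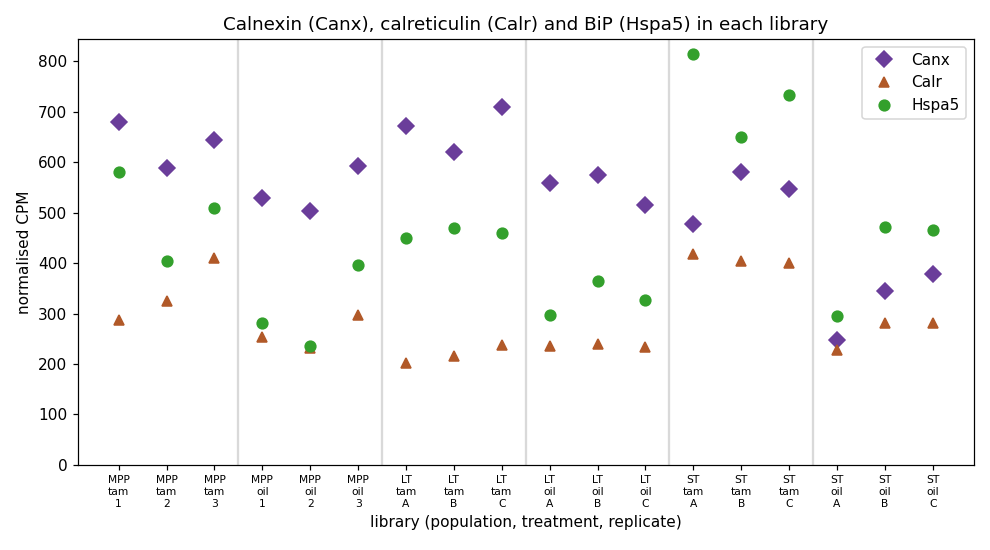
Normalised CPM (y axis, from 0) of Canx (diamonds), Calr (triangles) and Hspa5 (circles) in each of the 18 libraries (x axis, grouped by population and treatment). Canx lies above Hspa5 in every MPP and LT library and below it in every ST library.

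The order of the groups was therefore not the same for all chaperones. ST tamoxifen was the highest group for 9 members, and for 5 of them, Hspa5, Hsp90b1, Hyou1, Dnajb11 and Pdia3, its range did not touch that of the next group. Canx ran from 668 ± 44.1 CPM in LT tamoxifen and 638 ± 46.8 CPM in MPP tamoxifen, whose ranges overlapped, through 549.8 ± 31.5 CPM in LT oil, 542 ± 46.3 CPM in MPP oil and 535 ± 52.8 CPM in ST tamoxifen, which overlapped in turn, to 323 ± 68.5 CPM in ST oil, which was below all others. The mean of Canx in ST tamoxifen thus lay within the range of the LT oil and of the MPP oil libraries. For Calr and Pdia4 the lowest group was LT tamoxifen, for Hyou1 and Canx it was ST oil, for Hsp90b1, Pdia3 and Pdia6 it was LT oil, and for Hspa5, Dnajb11 and Xbp1 MPP oil.

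On a level per kilobase of the principal GENCODE M21 transcript, Hsp90b1 was the most abundant member in all 6 groups, at 433 ± 21.1 CPM per kb in ST tamoxifen and 241 ± 38.8 CPM per kb in ST oil. Hyou1 was the least abundant in all 6, at 29.0 ± 2.48 CPM per kb in ST tamoxifen and 17.8 ± 2.63 CPM per kb in ST oil. In LT oil Canx was in second place with 128 ± 7.36 CPM per kb, and in ST oil it was in the fifth place with 75.5 ± 16.01 CPM per kb. Xbp1 was in the sixth place in every group, at 63.4 ± 5.58 CPM per kb in ST tamoxifen and 46.1 ± 1.83 CPM per kb in ST oil. These levels depend on the transcript taken for the length.

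Across the 18 libraries, as a description of points that share group and depth, Pearson's r of a chaperone with the mean of the others ran from 0.67 for Pdia6 to 0.88 for Hsp90b1, with Canx at 0.19. With the group means removed, Canx had the highest r, 0.80, and the others 0.33 to 0.66. Single libraries held the lowest or highest value of their group in many members at once. ST oil library A was lowest in 10 members and LT oil library B highest in 10. LT oil library C and MPP oil library 2 were lowest in 8 each. Whether the r within groups holds more than such shared shifts was not tested. The group means of Canx ran in another order than those of the others. Xbp1 had 0.69, and 0.40 with group means removed. The genes most like the chaperone mean, among 7199 compared, were Hspa8 (r = 0.92), the cytosolic HSC70, Capzb (0.89), a subunit of the actin capping protein, and Hnrnpab (0.87), an RNA-binding protein. Those most like Xbp1 were Glo1 (0.85), Mdh2 (0.83) and Aifm1 (0.82), the last 2 being mitochondrial proteins.

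The other genes of the organelle are given by list, as called in ST cells, where 6.01% of all genes rose. The counts of the foldases, of the sensors and factors, and of the KDEL receptor and COPII genes lay near that share. Among 24 other foldases and co-chaperones 2 rose and none fell, with a median log2 fold change of 0.25. They were P4hb, protein disulfide isomerase itself, at 289 ± 16.2 CPM in ST tamoxifen and 167 ± 22.7 CPM in ST oil (0.80, limma adjusted p = 0.000829), and Dnajc3 (P58IPK), a co-chaperone of BiP, at 167 ± 9.18 CPM in ST tamoxifen and 114 ± 20.4 CPM in ST oil (0.56, 0.00983). The count was 4 without LT tamoxifen library A, and 1 without ST oil library A or ST tamoxifen library C. In N-glycosylation and the calnexin cycle 5 of 17 rose and none fell (median 0.41). They included the cargo lectin Lman1 (102 ± 4.51 CPM in ST tamoxifen and 63.8 ± 7.84 CPM in ST oil) and the oligosaccharyltransferase subunits Stt3b, Ddost and Rpn1, with log2 fold changes of 0.60 to 0.72 over these 4. Without ST tamoxifen library A 8 of the 17 rose, 7 without LT tamoxifen library A and 6 without ST oil library C. The count was 4 without ST oil library A, ST tamoxifen library B or ST tamoxifen library C.

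The translocon, signal recognition and signal peptidase list had 5 of 21 genes up and none down (median 0.22), among them Ssr3, Srpr, Ssr1 and Srp72. Ssr3, of the translocon-associated complex, stood at 331 ± 20.4 CPM in ST tamoxifen and 217 ± 26.5 CPM in ST oil. Only 1 of this list was called without ST oil library A or without ST tamoxifen library C, 2 without ST tamoxifen library B and 3 without ST oil library B. For degradation from the endoplasmic reticulum 3 of 23 rose and none fell (median 0.22). They were Vcp, the ATPase that pulls proteins out (266 ± 4.35 CPM in ST tamoxifen and 179 ± 22.7 CPM in ST oil), the ubiquitin-conjugating enzyme Ube2j1, and Edem3, which helps trim the sugars of misfolded glycoproteins. The count was 5 without LT tamoxifen library A and 2 without ST oil library A. Of the 16 sensors and factors of the unfolded protein response 1 rose and none fell (median 0.08), the sensor Atf6, at 74.8 ± 7.66 CPM in ST tamoxifen and 50.4 ± 7.29 CPM in ST oil (0.57, limma adjusted p = 0.0149). That call was lost without ST oil library B (adjusted p = 0.0828) or ST tamoxifen library B (0.0709).

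Of 14 targets of the Perk-Atf4 arm 2 rose and none fell (median 0.24). Asns, which makes asparagine, stood at 21.9 ± 1.21 CPM in ST tamoxifen and 9.40 ± 1.13 CPM in ST oil, and Psat1, of serine synthesis, at 167 ± 12.5 CPM in ST tamoxifen and 99.1 ± 6.69 CPM in ST oil. Of 18 KDEL receptor, cargo receptor and COPII genes 1 rose and none fell (median 0.25), the p24 protein Tmed10, with 3 without LT tamoxifen library A and 2 without ST oil library C. Among cytosolic and mitochondrial heat shock proteins 8 of 12 rose and none fell (median 0.49). Hspd1, the mitochondrial HSP60, stood at 665 ± 46.8 CPM in ST tamoxifen and 376 ± 36.3 CPM in ST oil, and Hspa8 at 3443 ± 193 CPM in ST tamoxifen and 2008 ± 377 CPM in ST oil, which was not called with quantile normalisation (adjusted p = 0.098). Hsp90aa1, a cytosolic HSP90, stood at 1467 ± 84.8 CPM in ST tamoxifen and 888 ± 111 CPM in ST oil. Hspa4, an HSP110 nucleotide exchange factor, had the largest fold change of these 4 at 0.86 (SE 0.16, limma adjusted p = 0.00125). Without ST oil library A 5 of the 12 passed.

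**Figure D4:**
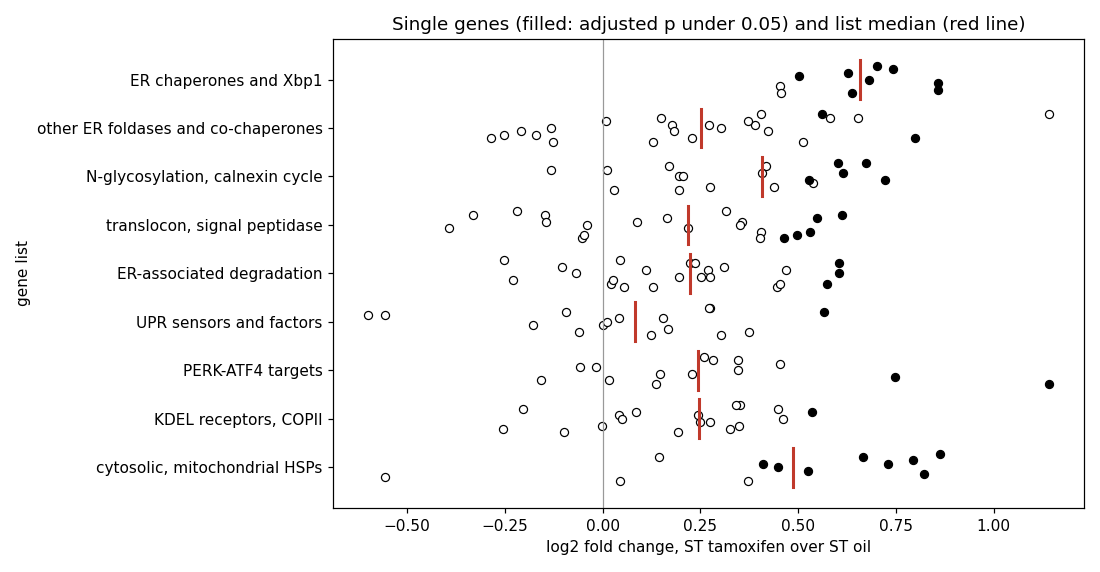
Log2 fold change of single genes in ST cells, tamoxifen over oil (x axis), for the 10 members and 8 lists of related genes (y axis). Filled points passed an adjusted p of 0.05 and red lines are list medians, which lie at 0.66 for the members, at 0.49 for cytosolic and mitochondrial heat shock proteins and at 0.08 for the sensors and factors of the unfolded protein response.

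In LT cells no gene of the 8 lists was called, and the lists' medians ran from -0.14 to 0.20. The smallest p there was that of Hspa4, at 418 ± 129.6 CPM in LT tamoxifen and 283 ± 41.1 CPM in LT oil (0.53, limma adjusted p = 0.117), which passed with DESeq2 (0.0425) and without LT tamoxifen library B (0.0235). Psat1, at 106 ± 17.2 CPM in LT tamoxifen and 80.04 ± 3.11 CPM in LT oil, passed without that library too (0.039). Of the genes with the smallest p of the other lists in LT cells, Selk was lower (-0.62, limma adjusted p = 0.131). So were Tmbim6 (-0.45, 0.194) and Sec24c (-0.26, 0.413). Spcs3 (0.37, 0.199), Creld2 (0.65, 0.277) and Lman1 (0.25, 0.428) were higher. In MPPs 1 was called, Asns, at 15.4 ± 1.39 CPM in MPP tamoxifen and 6.52 ± 0.614 CPM in MPP oil (1.13, limma adjusted p = 0.0305), and it did not pass without MPP oil library 1 (0.0889) or 2 (0.179) or without MPP tamoxifen library 1 (0.0575), 2 (0.159) or 3 (0.057). Rpn1 was the gene of its list with the smallest p in MPPs, at 114 ± 6.31 CPM with tamoxifen and 78.6 ± 4.76 CPM in oil (0.53, limma adjusted p = 0.242), and it passed with library weights (0.0156). In the other lists the gene with the smallest p was lower for Mbtps2 (-0.33). It was higher for Ube2g2 (0.89), Spcs2 (0.52), Fkbp2 (0.46), Hspe1 (0.43) and Sec23b (0.42). None of these was called, and Ube2g2 passed in 1 of the 11 alternatives (adjusted p = 0.0275).

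Sums of marker genes of other cell types and of division also differed between the ST groups. The counts below stand beside 6.01% of all genes called higher and 3.6% called lower in ST cells. In LT cells these shares were 0.139% and 0.277%. The summed granulocyte precursor markers came to 2803 to 3270 CPM in ST tamoxifen libraries and 1441 to 1765 CPM in ST oil libraries, with 0 of 7 called. The summed mitosis genes came to 4086 to 4384 CPM with tamoxifen and 2161 to 2685 CPM in oil, with 7 of 15 called higher. Macrophage markers summed to 93.9 to 104 CPM in ST tamoxifen and 38.6 to 69.9 CPM in ST oil, with 1 of 7 called higher, and erythroblast markers summed to 883 to 1248 CPM in ST tamoxifen and 597 to 821 CPM in ST oil, with 3 of 10 called higher. Leaving out any 1 ST library other than oil C took the macrophage count to 0, and any other than tamoxifen B took the erythroblast count to 1. Multipotent progenitor genes summed to 884 to 1127 CPM in ST tamoxifen and 1109.7 to 1451 CPM in ST oil, with 1 of 8 called lower. That count was 0 without ST oil library A, ST tamoxifen library A or C, or LT tamoxifen library A, and 2 without ST tamoxifen library B. Their part in the chaperone result was not tested. Plasma cells are rich in these chaperones, and the 6 measured plasma cell markers summed to 75.0 to 110.3 CPM in ST tamoxifen and 72.7 to 85.5 CPM in ST oil, with 0 called and none at 0 reads. Their log2 fold changes in ST cells ran from -0.54 to 0.67, with 4 of the 6 above 0 and a median of 0.15. They summed to 113.7 to 132.9 CPM in MPP tamoxifen and 89.0 to 107.0 CPM in MPP oil, without overlap and with 0 called. All 6 had log2 fold changes above 0 in MPPs, from 0.027 to 2.82 (median 0.23). In LT cells they summed to 45.5 to 70.7 CPM with tamoxifen and 60.2 to 70.8 CPM in oil, with 0 called and 0 of the 6 above 0 (median -0.19). The part of plasma cells was not tested either. Sdc1, the plasma cell syndecan and 1 of these 6, was low in both ST groups, at 2.21 ± 0.968 CPM in ST tamoxifen and 2.09 ± 1.65 CPM in ST oil. It was picked after its values were seen and does not stand for the list. In LT cells the mitosis sum was 2077 to 4215 CPM with tamoxifen and 1353 to 1757 CPM in oil, with 0 of 15 called. Granulocyte precursor markers summed to 29.3 to 67.5 CPM in LT tamoxifen and 132 to 143 CPM in LT oil, with 2 of 7 called lower, unlike the ST sums. Multipotent progenitor genes in LT cells had 2 of 8 called lower, at 244 to 407 CPM with tamoxifen and 409 to 671 CPM in oil, and stem and progenitor genes 1 of 3.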

How the data were processed

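The series holds RNA-seq of 18 libraries in 6 groups of 3. The labels' protocols name the Picopure kit for RNA, the Ovation RNA-Seq System V2 for amplified cDNA, sonication and TruSeq adaptors. Per the submitters' processing notes, Picard, cutadapt, RSEM 1.17 and limma were used with the build NCBIM37. The sources used here do not name the scaling. What the authors deposited is a normalised signal for 14419 genes, 120 of them with no symbol. In each library each deposited signal is a constant times the sum of 0.5 and a whole read number (100% whole within 0.001 read), so values are called normalised CPM. RSEM's estimates need not be whole, and whether they were rounded is not stated.

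Values were compared with limma 3.58.1 (R 4.3.3, statmod 1.5.0) on log2(value + 1), with trend and robust settings, all 18 libraries in 1 fit and 12 residual degrees of freedom. No low gene was filtered here, and all 10 members were tested. Each gene of the deposited table reached a value of 1 in at least 6 libraries. Shares of all genes are therefore shares of a table without genes below that level. The pseudocount understates changes of low genes. EdgeR 4.0.16 (quasi-likelihood, TMM) and DESeq2 1.42.0 on recovered reads were alternatives, with other pseudocounts (0.5, 2), a filter (5 in 3 libraries), quantile normalisation, library weights, the compared groups alone, the replicate block and each library left out. Leaving mitochondrial ribosomal RNA out of the scaling, and LT tamoxifen library A out of the shared fit, were chosen after seeing the data. The fits were tested on simulated data.

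The members and gene lists were chosen with earlier results of these data known. Named genes are all members, up to 4 genes per list with the smallest p past the threshold (or 1 where none passed), and the 3 genes most like the chaperone mean and Xbp1. Of list genes not called in LT or MPP cells, the 1 with the smallest p of each list is given. Sdc1, and the list genes in LT and MPP cells other than Hspa4, Asns and Rpn1, were named after their values were seen. Gene coordinates are from GENCODE M21 (GRCm38), promoters from RefSeq (GRCm38.p6). Both differ from the authors' build, and no coordinate was converted. Sets were described by counts and medians and not tested.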

Additional observations from a re-analysis of the deposited data

How the results depend on the processing

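The count of 8 risen members in ST cells ranged from 6 (quantile normalisation, or no trend and robust settings) to 9 (pseudocount 2, or the filter) over the 11 alternatives, and from 5 to 10 with 1 library left out. The counts of called members moved for ST against LT cells in oil (1) to 2 with quantile normalisation, the compared groups alone or DESeq2, to 3 with library weights, and to 1 to 3 with 1 library left out. For MPPs against ST cells in oil (2) they moved to 5 with quantile normalisation and 1 to 4 with 1 library left out. For the difference of effects ST minus LT (0) they were 1 with DESeq2, 2 with library weights and 0 to 2 with 1 library left out, and for ST minus MPP (0) 1 with library weights and 0 to 1. Tamoxifen in MPPs gave 0 to 1 with 1 library left out, and the cause of these moves was not tested. In LT cells 4 uncalled fold changes near 0 changed sign. Pdia6 (-0.01) was 0.072 with edgeR, 0.077 with DESeq2, 0.24 with library weights and -0.23 to 0.33 with 1 library left out. Dnajb11 (0.04) was -0.0091 with library weights, -0.029 without mitochondrial ribosomal RNA and -0.084 to 0.15 with 1 left out, Pdia4 (-0.02) was 0.045 with library weights and -0.14 to 0.038, and Hyou1 (0.10) -0.010 to 0.17. No fold change of a member called in the main comparison reversed.

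The replicate numbers were not shown to pair the libraries. Same-numbered tamoxifen and oil libraries of a population had correlations of their deviations of -0.03 to 0.13, and not every library correlated best with its own number, as each did between ST and LT libraries of 1 treatment (0.0518 to 0.137), a hint from the data and not the design. The replicate block gave 7 called members in ST cells, with Dnajb11 lost (adjusted p = 0.0597), 1 for ST against LT cells in oil, and 0 in the other comparisons that allow it. It joined same-numbered tamoxifen and oil libraries of a population, except for ST against LT cells in oil. There it joined ST and LT libraries of 1 treatment with the same letter. The difference of effects ST minus LT was not fitted with that second kind of block. No paired fit was possible for MPPs against LT or ST cells in oil, which share no numbers. Intervals and SEs rest on 3 libraries a group and on 1 spread per gene shared over all 6 groups. A library of one group thus also moves the SE of comparisons that leave that group out.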
